A study of Mus musculus with 12 samples.

Results

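Bile acid synthesis and transport in the liver was followed here through 10 genes, Cyp7a1, Cyp8b1, Cyp27a1, Cyp7b1, Nr0b2, Nr1h4, Abcb11, Slc10a1, Slco1b2 and Baat, which were found by their names in the gene-name column of 12 mouse liver arrays. All 10 were on the array, among 34741 genes, and all 10 were among the 21186 genes tested, those well above background on at least 2 arrays. Each of the 10 was well above background on 12 of 12 arrays.

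Liver RNA came from male ICR mice that were 5 weeks old when bought and were then adapted for 1 week. Vehicle mice drank water. DEN mice drank diethylnitrosamine, a liver carcinogen that alkylates DNA, at 80 mg/L (about 400 µg per day), and ATRA mice drank all-trans retinoic acid, the active form of vitamin A, at 30 mg/L (about 150 µg per day). ATRA+DEN mice received both. All 4 of these groups are labelled wild type. Control siRNA mice and G0s2 siRNA mice received 1.6 nmol of a scrambled siRNA or of an siRNA against G0s2, an inhibitor of triglyceride lipase, in a lipid carrier by vein. In the protocol the siRNA precedes DEN by a day, but the siRNA arrays are labelled with the siRNA alone, and it remains unstated if these mice also received DEN. Each of the 6 treatments was measured at day 2 and at day 7 on 1 array, and no label tells if its RNA came from 1 animal or from a pool. The p-values below therefore measure the spread between pairs of arrays, not between animals of a group.

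A level below is the log2 intensity of the gene's probe minus the 75th percentile of the array, so 0 is that percentile, and a difference of 1 is a 2-fold change. Levels are compared between arrays for a gene, never between genes. Probe positions are on mouse genome build mm9.

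Hepatocytes make bile acids from cholesterol. In the classic pathway Cyp7a1 catalyses the first and rate-limiting step and Cyp8b1 adds the hydroxyl group that leads to cholic acid. The alternative pathway starts with Cyp27a1, the mitochondrial sterol hydroxylase, and continues with Cyp7b1, the oxysterol hydroxylase, which in mouse liver is known to be higher in males. Baat joins the finished acids to taurine or glycine. Nr1h4 encodes the farnesoid X receptor, the bile acid sensor, and Nr0b2 encodes the small heterodimer partner, a target of that receptor that represses Cyp7a1 and Cyp8b1. Abcb11 is the bile salt export pump into the canaliculus, Slc10a1 the sodium-dependent uptake carrier and Slco1b2 an organic anion carrier of the blood side.

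Upstream sequences from RefSeq (GRCm38.p6) matched 7 of the 10 genes, in 8 windows of 250 bases that end at the base before the gene's start. Cyp7a1, Cyp7b1 and Baat had no entry. The windows of 3 genes, chosen for the reasons that follow, are shown 5′ to 3′. No link of a window to an expression difference was tested. Cyp8b1 had the smallest p of the 10 genes in the ATRA comparison, Slco1b2 had it in the DEN comparison, and Nr0b2 encodes the repressor of the pathway. Capitals mark matches to 3 motifs that were searched on both strands, AGGTCA (the core hexamer of nuclear receptor sites), CAAGGNCA (its extended form, the Nr5a2 type) and CAAAGTCCA (the direct-repeat core of the Hnf4a type).
Cyp8b1, chr9:121916306-121916555, minus strand: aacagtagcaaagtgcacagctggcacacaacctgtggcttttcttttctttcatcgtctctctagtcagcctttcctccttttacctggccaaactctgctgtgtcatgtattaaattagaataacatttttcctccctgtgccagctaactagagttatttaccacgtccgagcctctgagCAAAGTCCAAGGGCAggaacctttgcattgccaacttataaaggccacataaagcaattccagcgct
Nr0b2, chr4:133553126-133553375, plus strand: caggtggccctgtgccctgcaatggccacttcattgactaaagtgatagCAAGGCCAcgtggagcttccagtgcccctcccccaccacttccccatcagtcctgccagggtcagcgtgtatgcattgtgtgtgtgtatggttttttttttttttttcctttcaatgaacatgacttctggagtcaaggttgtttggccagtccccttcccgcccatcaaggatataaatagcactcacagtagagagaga
Slco1b2, chr6:141629268-141629517, plus strand: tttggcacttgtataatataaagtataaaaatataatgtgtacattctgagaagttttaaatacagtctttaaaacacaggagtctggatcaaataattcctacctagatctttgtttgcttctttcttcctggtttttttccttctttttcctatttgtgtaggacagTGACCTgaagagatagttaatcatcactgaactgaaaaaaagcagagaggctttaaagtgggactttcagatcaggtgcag

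In the Cyp8b1 window the capitals are 2 overlapping matches, CAAAGTCCA from -67 to -59 and CAAGGGCA from -60 to -53, counted from the gene's start. The Nr0b2 window holds CAAGGCCA from -201 to -194. In the Slco1b2 window TGACCT, the reverse complement of AGGTCA, lies from -81 to -76. Across all 32851 windows of this length, 14.0% held AGGTCA, 5.53% held CAAGGNCA and 0.384% held CAAAGTCCA. AGGTCA was also in the windows of Abcb11, Nr1h4 and 1 of the 2 windows of Slc10a1. An inverted repeat of AGGTCA with 1 base between the copies, the farnesoid X receptor type, was in 0.00609% of all windows and in 0 of the 8. These are matches of letters and were not tested as binding sites.

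Several facts of the arrays touch the results. Cyp26a1, the retinoic acid hydroxylase, had levels of 6.63 (ATRA) and 6.40 (ATRA+DEN) at day 2, of 7.10 (ATRA) and 4.34 (ATRA+DEN) at day 7, and between 0.42 and 2.38 on the other 8 arrays. The treatment characteristic of 3 day-7 arrays disagrees with their title and source name, and titles were used. Cdkn1a, a p53 target, was at 5.56 to 6.83 on the DEN, ATRA+DEN and both siRNA arrays of day 7, against 1.96 on vehicle and 2.84 on ATRA. At day 2 Cdkn1a was at 3.37 to 4.02 on the arrays of those same treatments, against 1.12 on vehicle and 2.13 on ATRA. G0s2 was at 3.84 with control siRNA and 1.99 with G0s2 siRNA at day 2, and at 3.45 and 2.26 at day 7. The 12 hepatocyte markers, albumin among them, were above background on every array, with a mean level between 8.97 and 9.47. Of 10 bile duct markers, 9 were tested and 4 were above background on all arrays, and their mean level was -2.64 to -1.88. Of 9 markers of pancreas, muscle and fat on the array 3 were tested, and their mean level was 4.38 on vehicle at day 2 against 1.21 to 2.79 on the other 11 arrays. The arrays lie on 4 slides. The 4 day-2 arrays without siRNA share a slide, as do both siRNA arrays of that day. At day 7 vehicle and DEN share a slide and the remaining 4 arrays share another.

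**Figure D1:**
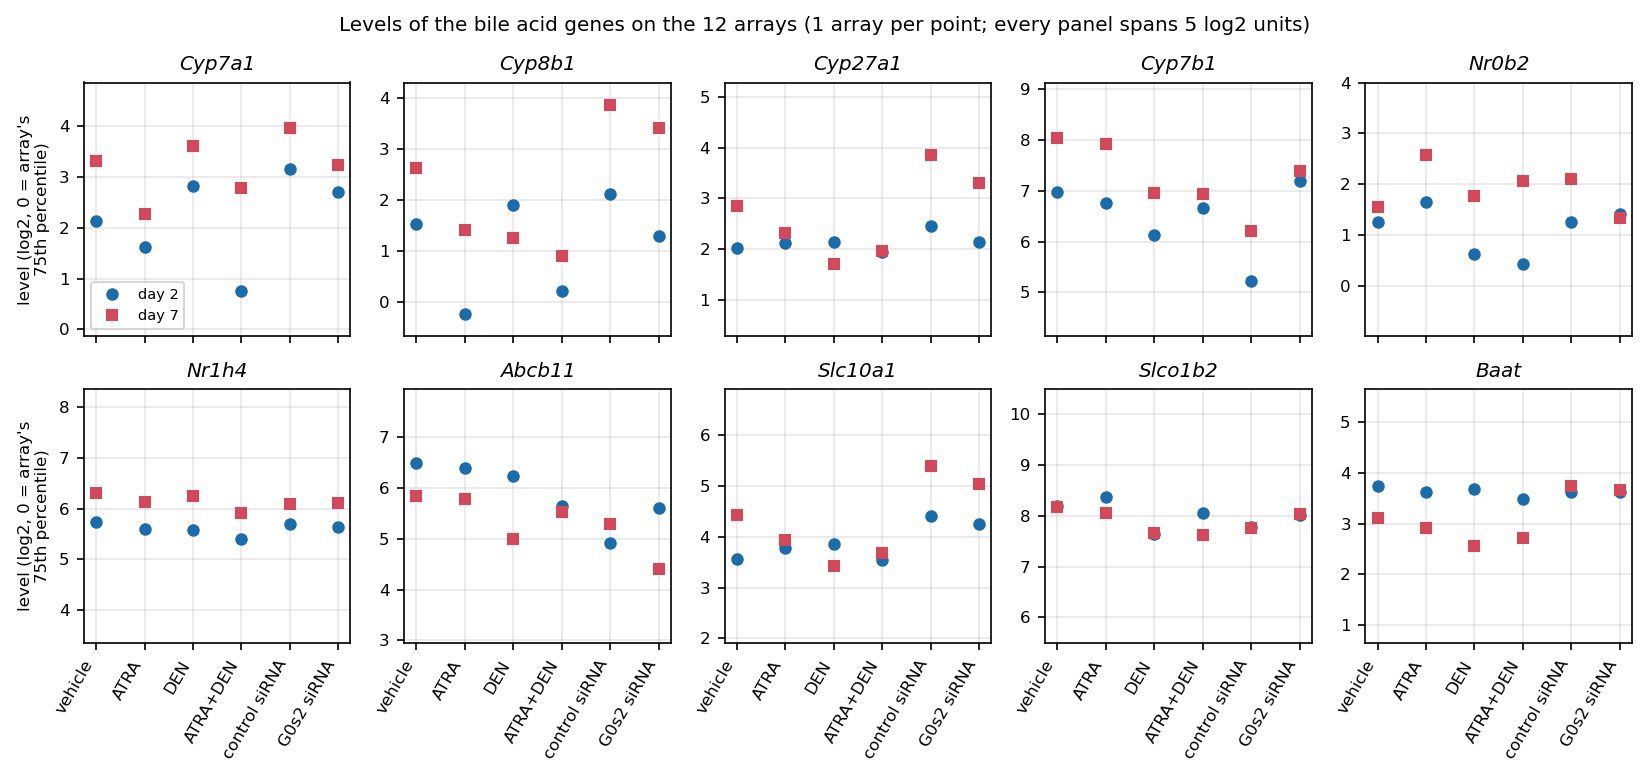
Level of each gene (log2, 0 is the array's 75th percentile) on each of the 12 arrays, 1 array per point, day 2 as circles and day 7 as squares, by treatment on the horizontal axis. Every panel spans the same number of log2 units, and Slc10a1 is drawn from its probe that names 1 gene. Cyp8b1 ranges from -0.25 to 3.88 and Slco1b2 from 7.63 to 8.37.

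The array titles allow 4 comparisons of ATRA against no ATRA, with and without DEN at each day. Both enzymes of the classic pathway were lower with ATRA in all 4, Cyp8b1 by 2.40-fold and Cyp7a1 by 2.15-fold on average, and neither passed adjustment over all genes. Cyp8b1 (chromosome 9, 121824595 to 121824654), whose window is shown above, was at 1.53 on vehicle, -0.25 on ATRA, 1.90 on DEN and 0.21 on ATRA+DEN at day 2. At day 7 it was at 2.62 on vehicle, 1.42 on ATRA, 1.25 on DEN and 0.89 on ATRA+DEN. The 2 ATRA arrays of day 2 were the 2 lowest of the 12, and the groups with and without ATRA did not overlap at day 2. How many of all genes separate in this way was not counted. At day 7 the ATRA array lay above the DEN array. The mean difference was -1.26 (SE 0.27, 4 pairs, limma adjusted p = 0.735).

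Cyp7a1 (chromosome 4, 6193456 to 6193515) was at 2.13 on vehicle, 1.63 on ATRA, 2.82 on DEN and 0.76 on ATRA+DEN at day 2. At day 7 the levels were 3.31 on vehicle, 2.28 on ATRA, 3.61 on DEN and 2.79 on ATRA+DEN. Within each day the arrays with ATRA did not overlap those without, and the share of all genes that do so was not counted. The difference was largest between ATRA+DEN and DEN at day 2, -2.07 or 4.19-fold, and smallest between ATRA and vehicle at day 2, -0.50. The mean was -1.10 (SE 0.28, 4 pairs, limma adjusted p = 0.735).

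Cyp7a1 and Cyp8b1 were the 2 of 10 genes lower at an unadjusted p under 0.05, against 2.33% of all genes. After adjustment 0 of 10 passed in either direction, with a background of 0%. Nr1h4 was the other gene lower in all 4 pairs, by -0.21 (SE 0.10, adjusted p = 0.876), which makes 3 of 10 against 7.08% of all genes. The median over the 10 genes was -0.089, and 0.0030 over all genes. Nr0b2, the repressor of both enzymes, was higher with ATRA in 3 of 4 pairs, with a mean of 0.37 (SE 0.22, adjusted p = 0.879). Its largest difference was 1.02, between ATRA and vehicle at day 7, and its value between ATRA+DEN and DEN at day 2 was -0.19. The other 6 genes had mean differences between -0.092 and 0.11 and differed in sign between pairs.

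At day 2 the 4 arrays share a slide, whereas at day 7 the ATRA arrays lie on another slide than vehicle and DEN, so ATRA and slide cannot be told apart at day 7. With slide as a block the mean rests on day 2 and was -1.74 (SE 0.49) for Cyp8b1 and -1.28 (SE 0.41) for Cyp7a1. With the day-7 groups taken from the treatment characteristic in place of the title, the mean for Cyp7a1 was -0.69 (SE 0.40) and for Cyp8b1 -1.08 (SE 0.43).

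**Figure D2:**
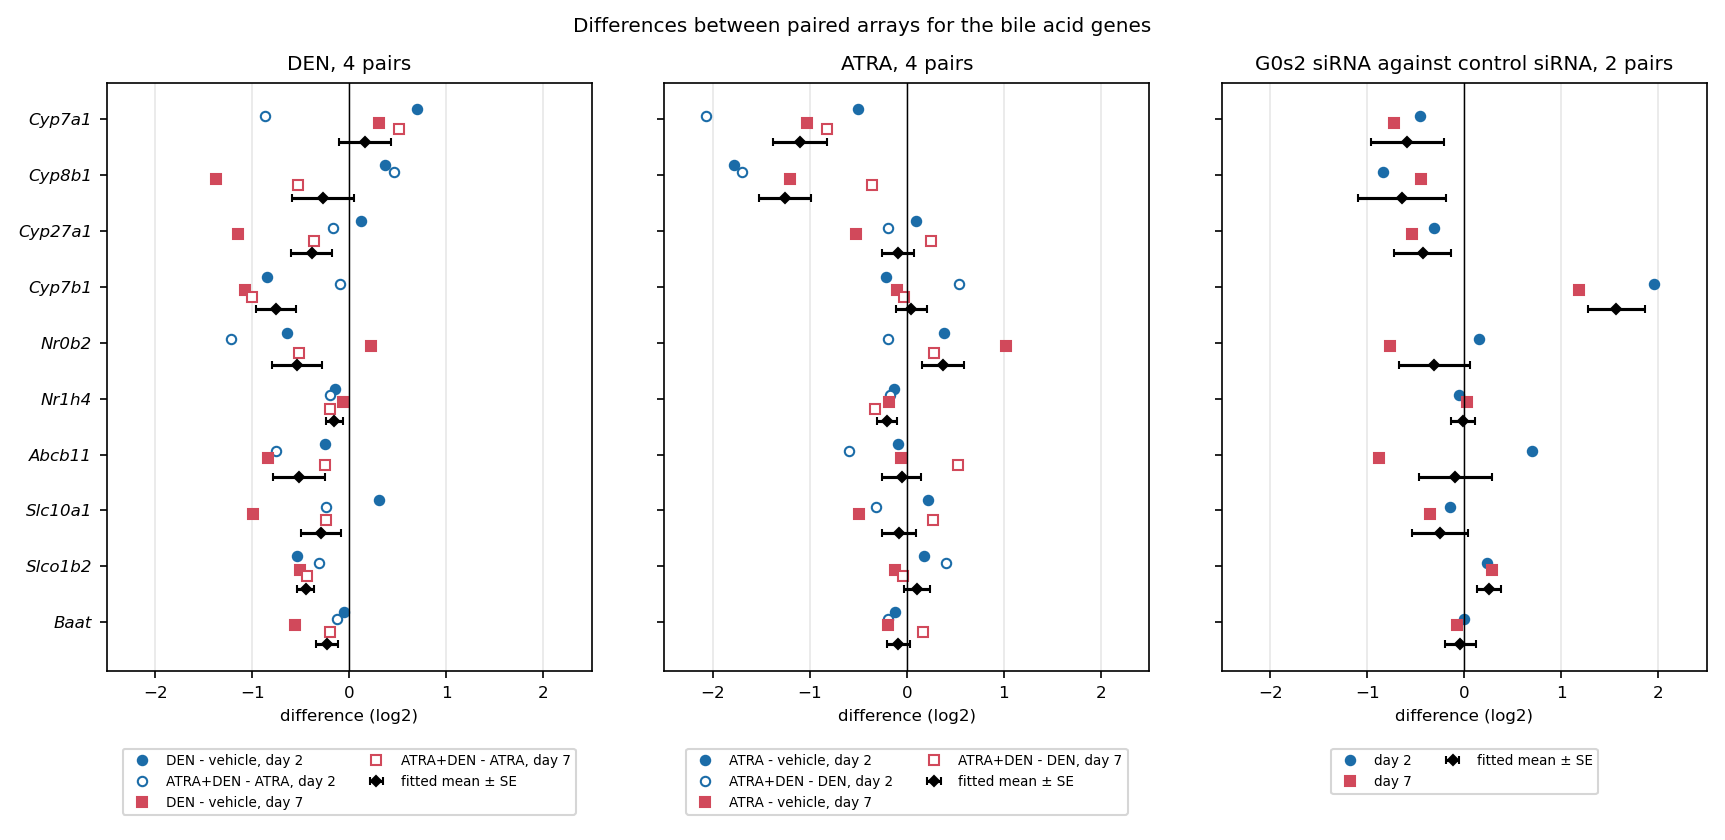
Differences (log2) between paired arrays for the 10 genes, with each pair as a point and the fitted mean ± SE as a black diamond, for DEN (4 pairs), ATRA (4 pairs) and G0s2 siRNA against control siRNA (2 pairs), with Slc10a1 from its probe that names 1 gene. All 4 ATRA points of Cyp7a1 and Cyp8b1 lie left of 0, from -0.36 to -2.07, and both G0s2 siRNA points of Cyp7b1 lie right of 0, at 1.96 and 1.18.

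DEN was compared with no DEN in 4 pairs, each on 1 slide. The fit also held the 2 siRNA pairs, so each SE and p for DEN takes in their spread too. The uptake carrier Slco1b2, Cyp7b1, the export pump Abcb11, the conjugating enzyme Baat and the receptor Nr1h4 were lower with DEN in every pair by small amounts, from 1.11-fold for Nr1h4 to 1.69-fold for Cyp7b1, and 0 of 10 passed adjustment. Slco1b2 (chromosome 6, 141634476 to 141634535), the uptake carrier shown above by its window, was at 8.19 on vehicle, 8.37 on ATRA, 7.65 on DEN and 8.06 on ATRA+DEN at day 2. At day 7 the levels were 8.18 on vehicle, 8.06 on ATRA, 7.67 on DEN and 7.63 on ATRA+DEN. Among these 4 treatments the arrays with DEN did not overlap those without at either day. The siRNA arrays of day 2, at 7.78 (control) and 8.01 (G0s2), lay within the range of the DEN arrays of that day. The share of all genes with such a separation was not counted. The difference was -0.45 (SE 0.088, 4 pairs, limma adjusted p = 0.240), and the single pairs ranged from -0.54 to -0.31.

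Cyp7b1 (chromosome 3, 17972286 to 17972345) was at 6.97 on vehicle, 6.76 on ATRA, 6.13 on DEN and 6.66 on ATRA+DEN at day 2. At day 7 it was at 8.04 on vehicle, 7.93 on ATRA, 6.96 on DEN and 6.93 on ATRA+DEN. At day 7 both DEN arrays were about 1 log2 unit below both arrays without DEN, and at day 2 the difference between ATRA+DEN and ATRA was -0.10. The mean was -0.76 (SE 0.21, 4 pairs, limma adjusted p = 0.294).

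Abcb11, the export pump (chromosome 2, 69076365 to 69076424), was at 5.64 to 6.49 on those 4 treatments at day 2 and at 5.00 to 5.84 at day 7, and lower with DEN in each pair, by -0.52 on average (SE 0.27, adjusted p = 0.478). Fitted on the 8 arrays without siRNA, the SE of Abcb11 was 0.15 (limma adjusted p = 0.379). Baat (chromosome 4, 49502933 to 49502992), the conjugating enzyme, differed by -0.23 (SE 0.11, adjusted p = 0.461) and had its lowest level of all arrays, 2.56, on DEN at day 7. Nr1h4 (chromosome 10, 88917222 to 88917281) differed by -0.15 (SE 0.084, adjusted p = 0.500). These 5 genes lower in all 4 pairs stand against 12.5% of all genes. Slco1b2 and Cyp7b1 were the 2 of 10 lower at an unadjusted p under 0.05, against 6.78% of all genes, and 8 of 10 had a fitted difference below 0 against 54.2%. The median was -0.33 over the 10 genes and -0.022 over all genes. Beside this, 11 of 12 hepatocyte markers had a fitted difference below 0 with DEN, with a median of -0.19 and 0 passing adjustment. In whole liver, fewer hepatocytes and less RNA per hepatocyte cannot be told apart, and the part of either in these differences was not tested.

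The remaining genes differed in sign between DEN pairs. Cyp27a1 (chromosome 1, 74782203 to 74782262) was at 2.02 on vehicle and 2.14 on DEN at day 2, and at 2.85 and 1.71 at day 7, the last of these being its lowest level of the 12 arrays. On ATRA and ATRA+DEN it was at 2.12 and 1.95 at day 2, and at 2.33 and 1.96 at day 7. Its mean DEN difference was -0.39 (SE 0.21, adjusted p = 0.497). Cyp7a1 was higher with DEN in 3 of 4 pairs and lower between ATRA+DEN and ATRA at day 2, at -0.87, with a mean of 0.16 (SE 0.27, adjusted p = 0.843). Cyp8b1 was higher with DEN at day 2, by 0.37 and 0.46, and lower at day 7, by -1.38 and -0.53. Its mean DEN difference was -0.27 (SE 0.32, limma adjusted p = 0.764).

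Nr0b2 (chromosome 4, 133109694 to 133109753) was at 1.26 on vehicle, 1.64 on ATRA, 0.62 on DEN and 0.43 on ATRA+DEN at day 2, so that both DEN arrays were the lowest of the 12. At day 7 it was at 1.56 on vehicle, 2.58 on ATRA, 1.77 on DEN and 2.06 on ATRA+DEN, and the groups overlapped. The mean difference was -0.54 (SE 0.26, 4 pairs, adjusted p = 0.458).

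Between DEN and vehicle at day 7, Cyp8b1, Cyp27a1 and Cyp7b1 were lower by at least 2-fold, at -1.38, -1.14 and -1.08. This is 3 of 10 genes against 6.06% of all genes. Between ATRA+DEN and ATRA at day 7 the same 3 genes differed by -0.53, -0.36 and -1, in that order. No gene of the 10 differed by 2-fold between DEN and vehicle at day 2, when 3.67% of all genes were lower by that much. With the day-7 groups taken from the characteristic, the mean DEN difference of Cyp7b1 was -0.27 (SE 0.36) and that of Slco1b2 -0.25 (SE 0.18).

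Whether the DEN difference itself differed with ATRA was tested on the 8 arrays without siRNA. None of the 10 genes passed, 0 of 10 against 0% of all genes in limma, and 0 of 10 had an unadjusted p under 0.05, against 3.62% of all genes. The values ran from -0.68 for Cyp7a1 (SE 0.55) to 0.47 for Cyp8b1 (SE 0.74).

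Slc10a1 is measured by 2 probes that gave different pictures. The probe that names Slc10a1 alone (chromosome 12, 82061470 to 82061529) was at 3.57 on vehicle, 3.78 on ATRA, 3.87 on DEN and 3.55 on ATRA+DEN at day 2, and at 4.42, 3.93, 3.43 and 3.69 at day 7. The brighter probe (chromosome 12, 82056539 to 82056598) also carries the names 4930402H24Rik, Med16 and Spc24, and it ranged over the 12 arrays from 9.71 to 10.62. For DEN the first probe gave -0.29 (SE 0.21, adjusted p = 0.596) and the second 0.044 (SE 0.12, adjusted p = 0.907). The brighter probe is the one the counts over 10 genes use. Because it names other genes too, Slc10a1 is uncertain here, and its sign differed between the probes for DEN, the interaction, the G0s2 siRNA and day.

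The G0s2 siRNA was compared with control siRNA in 2 pairs, each on 1 slide. The fit is that of DEN, so each SE and p for the siRNA also rests on the spread of the 4 DEN pairs. Cyp7b1 was higher with the G0s2 siRNA by 2.96-fold on average and by more than 2-fold at each day, and it did not pass adjustment. It was at 5.23 with control siRNA and 7.19 with G0s2 siRNA at day 2, and at 6.21 and 7.38 at day 7. Both control siRNA arrays were the lowest of the 6 treatments at their day, and the G0s2 siRNA arrays lay within the range of the 4 treatments without siRNA at day 7 and above it at day 2. The difference was 1.57 (SE 0.30, 2 pairs, limma adjusted p = 0.615). It was the only one of the 10 genes with an unadjusted p under 0.05, in the higher direction, against 4.07% of all genes. After adjustment 0 of 10 passed, against 0% of all genes.

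The other genes gave smaller or mixed differences with the siRNA. Cyp7a1 was at 3.16 and 2.71 (control, then G0s2 siRNA) at day 2 and at 3.97 and 3.24 at day 7. Cyp8b1 was at 2.12 and 1.29 at day 2 and at 3.88 and 3.43 at day 7. Cyp27a1 was at 2.47 and 2.15 at day 2 and at 3.86 and 3.31 at day 7. These 3 hydroxylases were lower with the G0s2 siRNA in both pairs, by -0.59 (SE 0.38), -0.64 (SE 0.45) and -0.43 (SE 0.30) on average, with adjusted p between 0.737 and 0.753 in limma. With Baat (-0.043, SE 0.16), 4 of 10 genes were lower in both pairs, against 20.7% of all genes. Abcb11 differed by 0.69 at day 2 and by -0.89 at day 7, where its level of 4.41 with the G0s2 siRNA was the lowest of the 12 arrays. Nr0b2 was at 1.26 and 1.41 at day 2 and at 2.11 and 1.33 at day 7. Slco1b2 differed by 0.26 (SE 0.12) and Nr1h4 by -0.016 (SE 0.12).

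Sex-biased and macrophage genes also differed on the siRNA arrays, without passing. All 8 male-biased liver genes of a list had a fitted difference above 0 with the G0s2 siRNA, with a median of 0.56, and 7 of 8 female-biased genes had one below 0, with a median of -2.21. Of 10 listed female-biased genes 8 were tested and 2 were above background on all arrays. Cyp17a1, above background on all 12 arrays, went the other way and was higher in both pairs, by 0.77 on average (SE 0.26). The median and mean levels of that list thus include values not well above background. The all-gene median was 0.063. The share of all genes above or below 0 is not given for the siRNA, so the sign counts of these lists have no background. The mean level of the female-biased genes was 4.48 with control siRNA at day 2, against -1.52 to 1.06 on the other 11 arrays, and that of the male-biased genes was 5.44 there against 6.46 to 7.33. The 10 Kupffer cell markers had a mean level of 4.12 and 3.47 on the day-2 control and G0s2 siRNA arrays and of 2.04 to 2.89 on the other 10, and all 10 had a fitted difference below 0, with a median of -0.59. None of these lists had a member that passed adjustment for the siRNA. At day 7 the mean female-biased level was -0.32 with control siRNA, the highest of the 6 arrays of that day, and -1.10 with G0s2 siRNA. The log2 of the summed levels of that list had the opposite order at day 7, at 8.58 with control siRNA and 9.18 with G0s2 siRNA. At day 2 that log2 sum was 9.80 and 7.60. The part of any of these lists in the Cyp7b1 difference was not tested.

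Day 7 was compared with day 2 in 6 pairs, 1 for each treatment. With the percentile over all probes as the scale, 5 of the 10 genes rose, Cyp7a1, Cyp8b1, Cyp7b1, Nr0b2 and Nr1h4, by 1.44-fold to 2.17-fold, and 0 fell. The split depended on the scale: 1 gene was called higher and 3 lower under quantile normalization, and 3 higher and 4 lower under the percentile over probes above background on all arrays. Over all genes 26.3% were called higher and 20.5% lower, so a call by itself is common here. Each slide holds 1 day and each day spans 2 slides. The arrays of day 2 and those of day 7 were also scanned on different dates. The difference between days thus cannot be told apart from scan date, nor fully from slide. With slide as a random block, Nr1h4 alone was called (adjusted p = 0.0269), Cyp7a1 was at 0.0646, Cyp7b1 at 0.0663, Cyp8b1 at 0.130 and Nr0b2 at 0.145.

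Nr1h4, the bile acid receptor, was at 5.40 to 5.73 on the 6 arrays of day 2 (median 5.62). On those of day 7 it was at 5.92 to 6.31 (median 6.12), with no overlap. How many of all genes had no overlap between days was not counted. Its difference was 0.53 (SE 0.088, 6 of 6 pairs higher, limma adjusted p = 0.00342). Cyp7a1 ranged from 0.76 to 3.16 at day 2 (median 2.42) and from 2.28 to 3.97 at day 7 (median 3.27), and was higher at day 7 in 6 of 6 treatments, from 0.53 with G0s2 siRNA to 2.04 with ATRA+DEN. The mean was 1.00 (SE 0.20, limma adjusted p = 0.00725). The days overlapped for Cyp7a1, although each treatment alone was higher at day 7.

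Cyp7b1 was also higher in 6 of 6 pairs, from 0.20 with G0s2 siRNA to 1.17 with ATRA, with a mean of 0.75 (SE 0.16, limma adjusted p = 0.00903). Cyp8b1 was higher in 5 of 6 pairs, up to 2.14 with G0s2 siRNA, and lower with DEN, at -0.66. Its mean was 1.11 (SE 0.35, limma adjusted p = 0.0353). Nr0b2 was higher in 5 of 6 pairs, up to 1.63 with ATRA+DEN, and at -0.077 with G0s2 siRNA, with a mean of 0.80 (SE 0.22, limma adjusted p = 0.0230). The calls of Cyp8b1 and Nr0b2 were lost when most single pairs were left out, while the differences stayed of similar size. Without the pair of vehicle, ATRA, ATRA+DEN, control siRNA or G0s2 siRNA, Cyp8b1 differed by 0.91 to 1.20, with adjusted p of 0.0582 to 0.0914 in limma. Without the pair of ATRA, DEN, ATRA+DEN or control siRNA, Nr0b2 differed by 0.63 to 0.79, with adjusted p of 0.0531 to 0.0600 in limma. The genes called then numbered 3 without the ATRA pair or without the ATRA+DEN pair, namely Cyp7a1, Cyp7b1 and Nr1h4.

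The scaling also moves this comparison. The median over all genes was 0.11 with the percentile over all probes, with 5571 genes called higher and 4352 lower, and -0.14 with the percentile over probes above background on all arrays, with 2455 higher and 6148 lower. Quantile normalization gave a median of 0.033, with 3866 higher and 4046 lower. Relative to the median of all genes under these 3 scalings, Cyp8b1 differed by 0.95 to 1.01, Cyp7a1 by 0.76 to 0.89, Nr0b2 by 0.63 to 0.69, Cyp7b1 by 0.42 to 0.64 and Nr1h4 by 0.22 to 0.42. Of these 5 genes, quantile normalization called Cyp7a1 alone, and the percentile over detected probes called Cyp7a1, Cyp7b1 and Nr1h4. Lower calls were those of Abcb11, Slco1b2 and Baat under both, with the brighter Slc10a1 probe as well under the latter.

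The other 5 genes did not pass for day with the percentile over all probes. Abcb11 differed by -0.58 (SE 0.23, 5 of 6 pairs lower, limma adjusted p = 0.0735) and Baat by -0.51 (SE 0.18, adjusted p = 0.0545). Under quantile normalization Abcb11 differed by -0.85 (limma adjusted p = 0.0199) and Baat by -0.75 (adjusted p = 0.0166). Baat was at 3.49 to 3.74 on the 6 arrays of day 2. At day 7 it was at 2.56 to 3.12 on the 4 arrays without siRNA and at 3.73 and 3.66 on the control and G0s2 siRNA arrays, so the day-7 siRNA arrays lay within the range of day 2. Cyp27a1 differed by 0.53 (SE 0.25, adjusted p = 0.124) and the Slc10a1 probe that names 1 gene by 0.41 (SE 0.20, adjusted p = 0.135). Both were highest of the 12 arrays with control siRNA at day 7, at 3.86 and 5.40, as were Cyp7a1 and Cyp8b1. Slco1b2 differed by -0.12 (SE 0.11, adjusted p = 0.393), by -0.39 under quantile normalization (adjusted p = 0.0238) and by -0.37 under the percentile over detected probes (adjusted p = 0.0355). The brighter Slc10a1 probe differed by -0.32 (SE 0.12, adjusted p = 0.0667), by -0.56 under the percentile over detected probes (adjusted p = 0.0123) and by -0.012 under quantile normalization (adjusted p = 0.954). Single pairs decided some of these calls in limma. Without the control siRNA pair, Abcb11 (-0.77, adjusted p = 0.0235) and Baat (-0.63, adjusted p = 0.0339) passed, and without the G0s2 siRNA pair Baat did (-0.62, adjusted p = 0.0412). Without the DEN pair, Cyp27a1 (0.72, adjusted p = 0.0468) and the brighter Slc10a1 probe (-0.40, adjusted p = 0.0331) passed.

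**Figure D3:**
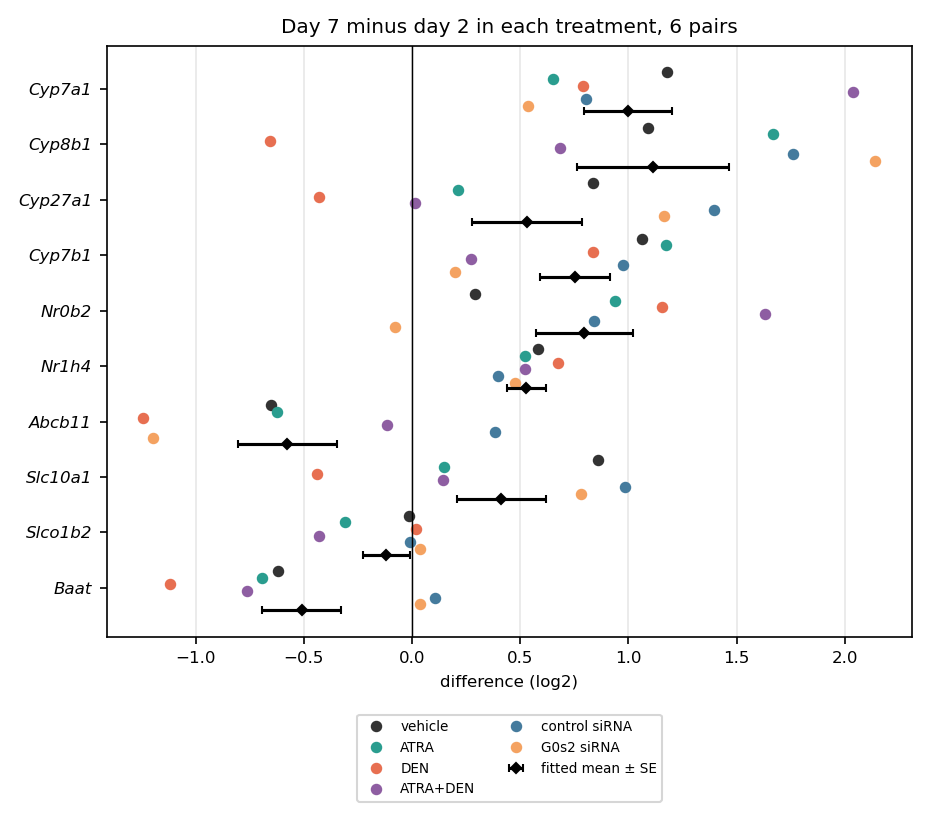
Difference between day 7 and day 2 (log2) for each gene, 1 point per treatment (6 pairs) and the fitted mean ± SE as a black diamond, with Slc10a1 from its probe that names 1 gene. All 6 points of Nr1h4, Cyp7a1 and Cyp7b1 lie right of 0, and for Baat the 2 siRNA points lie at 0.039 and 0.11 while the other 4 lie from -1.12 to -0.62.

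Other genes of bile acid handling were taken from 3 lists. Of 20 further enzymes of synthesis and conjugation 19 were tested, of 23 further transporters 21, and of 24 receptors, cofactors and signals 21. No member passed adjustment for DEN, ATRA, their interaction or the G0s2 siRNA. For day, 5 enzymes were higher and 2 lower, 4 transporters higher and 3 lower, and 5 regulators higher and 2 lower, where 26.3% of all genes were higher and 20.5% lower.

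Among the regulators, Gpbar1, the membrane bile acid receptor, fell by 1.55 on the log2 scale (SE 0.11, limma adjusted p = 0.000286). The retinoic acid receptor Rara and the retinoid X receptor Rxrb rose by 0.62 (SE 0.14) and 0.50 (SE 0.098). Among transporters, Slc10a5 and Slc10a2, relatives of Slc10a1, fell by 1.34 (SE 0.23) and by 1.16 (SE 0.23) on the log2 scale, and Abcg2 and the epoxide hydrolase Ephx1 rose by 0.81 (SE 0.15) and 0.74 (SE 0.21). Among enzymes, Cyp46a1, a cholesterol hydroxylase, and Cyp39a1, an oxysterol hydroxylase, fell by 0.89 (SE 0.18) and by 0.54 (SE 0.18) on the log2 scale. Cyp39a1 differed in sign between treatments, from -0.94 to 0.41 (limma adjusted p = 0.0456). Por, the reductase that feeds microsomal P450 enzymes, and Fdxr, which feeds the mitochondrial ones, rose by 0.70 (SE 0.12) and 0.66 (SE 0.15). These day differences use the percentile over all probes, and other scalings or blocks are not given for the lists.

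For the treatments, members with 1 sign in every pair are given as values that did not pass. With ATRA, Rarb, a retinoic acid receptor and itself a retinoic acid target, differed by 1.11 (SE 0.26), Foxa2 by 0.54 (SE 0.17), Por by 0.54 (SE 0.17), the basolateral exporter Abcc4 by 0.47 (SE 0.12) and Cyp39a1 by -0.33 (SE 0.15). With DEN, the drug exporter Abcb1a differed by 0.83 (SE 0.23), Ephx1 by 0.76 (SE 0.15), Abcg8, a sterol exporter, by 0.54 (SE 0.21), Por by -0.54 (SE 0.16) and Cyp39a1 by -0.53 (SE 0.24). Of the 21 regulators, 18 had a fitted difference below 0 with DEN, with a median of -0.14, against 54.2% of all genes. With the G0s2 siRNA, the organic anion carrier Slco1a4 differed by -1.69 (SE 0.81), Nr1i2, the pregnane X receptor, by 0.98 (SE 0.36), Cyp39a1 by -0.91 (SE 0.34), Klb, the coreceptor for the intestinal hormone that represses Cyp7a1, by -0.64 (SE 0.24) and Abcg2 by 0.61 (SE 0.20). Adjusted p was at least 0.240 for each of these values in limma.

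Over the 12 arrays, with the mean of each day taken off, the levels of Cyp7a1 and Cyp8b1 correlated at r = 0.70, those of Cyp8b1 and Cyp27a1 at 0.83 and those of Cyp8b1 and Baat at 0.81. Cyp7b1 correlated with Slco1b2 at 0.72 and with Cyp7a1 at -0.53, and Nr0b2 with Cyp7a1 at 0.0058 and with Cyp8b1 at -0.26. Among 15748 genes above background on all arrays, those most like Cyp7a1 were Fam43a (0.96), Anks4b (0.90) and Tent5a (0.88), and those most like Cyp8b1 were Clec14a (0.97), Sqstm1 (0.94) and Chid1 (0.93). For Cyp7b1 they were Kdm4b (0.92), Vapb (0.91) and Lama3 (0.91), and for Nr0b2 Olfr362 (0.81), Micall1 (0.80) and Jpt2 (0.80). Within day 2 and within day 7, r with Cyp7a1 was 0.99 and 0.65 for Anks4b, 0.99 and 0.62 for Tent5a, and 0.96 and 0.98 for Fam43a. These are descriptions of 12 arrays that share slides and treatments.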

How the data were processed

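The deposited array files hold processed spot intensities of Agilent Feature Extraction, version 10.7.1.1 per the file headers and 9.5.1.1 per the submitters' processing notes, already background-subtracted. The authors' series table holds linear intensities normalized within each day, and was used only as an alternative. RNA was isolated with TRIzol, per the labels' protocols.

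Control and outlier spots were left out, and the log2 intensities of a probe's spots were averaged. This gave 55681 probes, with 41.0% to 50.7% well above background on an array and 0 saturated. The probe values were set against the array's 75th percentile. A gene took its probe of highest mean level. Positions come from the file annotation, and symbols from RefSeq tables (GRCm38.p6), through which 27235 probes were named by accession, 3581 by symbol and 565 by synonym, while 24300 kept the file's name. Effects were fitted with limma 3.58.1 under R 4.3.3 over pairs of arrays, with the pair as block (slide for the interaction, treatment for day) and Benjamini-Hochberg adjustment over 21186 genes at 0.05. The DEN and G0s2 siRNA effects came from the same fit of all 12 arrays, and the DEN and siRNA pairs share its estimate of spread. The number of arrays, 1 per group, limits the precision.

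The 10 genes and the lists were chosen with earlier results of these data known. All 10 were covered in every comparison, with some effects given only as a range or a count. From each list, up to 4 genes that passed, or up to 3 with 1 sign in every pair where none passed, could be named, and for 4 genes the 3 most correlated ones. A gene that met this rule is not reported here. The fits were tested on simulated data. Alternatives changed the background correction, scaling, probe choice, filter, block, day-7 labels and the pairs used.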

Additional observations from a re-analysis of the deposited data

Results flagged for a closer look

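In 4 of 55 checks, every pair of a group differed in a direction opposite to every pair of another group. None of these differences was tested. The share of all genes that meet such a check was not counted, so the number of flags is no result by itself. Of these checks, 3 set 2 pairs against 2, and that of Baat set 4 pairs against 2.

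Cyp8b1 was higher with DEN in both pairs of day 2, by 0.37 and 0.46, and lower in both pairs of day 7, by -1.38 and -0.53, so the mean DEN difference was 1.37 higher at day 2 than at day 7. Baat was lower at day 7 than at day 2 in all 4 treatments without siRNA, by -1.12 to -0.62, and higher in both siRNA treatments, by 0.039 and 0.11, a gap of -0.87. Slco1b2 was higher with ATRA in both pairs of day 2, by 0.18 and 0.41, and lower in both pairs of day 7, by -0.12 and -0.043, a gap of 0.37. The brighter Slc10a1 probe, which names other genes too, was higher with ATRA at day 2, by 0.027 and 0.19, and lower at day 7, by -0.56 and -0.021, a gap of 0.40.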

How the results depend on the processing

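The number of genes called for DEN, ATRA, their interaction and the G0s2 siRNA was 0 of 10 under every alternative run. For day it was 5, fell to 1 with slide as a random block, was 4 with quantile normalization and with no filter, and was 7 with normexp, with the percentile over detected probes and with genes above background on all 12 arrays. It ranged from 3 to 6 when a pair was left out. Lower calls, 0 at first, numbered 2 with normexp and with the stricter filter, 3 with quantile normalization and 4 with the percentile over detected probes. The labels give no replicate numbers, so the pairs are those of treatment and day. The alternative that restricts genes to probes of 1 gene, and the alternatives for single arrays, were chosen after seeing the data.

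Values that changed sign lay mostly near 0, and the cause was not tested. Slc10a1 changed sign most often. Its G0s2 siRNA difference was -0.042 with normexp, -0.28 with quantile normalization, -0.011 with the percentile over detected probes, -0.096 with the mean over probes, -0.20 in the authors' series table and -0.25 with probes of 1 gene. Its DEN difference was -0.12 with the mean over probes, -0.11 with the day-7 groups of the characteristic and -0.29 with probes of 1 gene. Its ATRA difference was 0.062 with quantile normalization, 0.080 in the series table, 0.19 with the characteristic and 0.11 with slide as block. Its interaction was 0.066 with the characteristic and 0.11 with probes of 1 gene, and its day difference 0.048 with the mean over probes and 0.41 with probes of 1 gene. Abcb11 had an ATRA difference of 0.020 with normexp, and an interaction of -0.029 with quantile normalization and -0.024 in the series table. With the characteristic, the DEN difference of Cyp7a1 was -0.51 and the interaction of Nr1h4 was 0.11.

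Leaving out a pair in turn also turned signs. The DEN difference then ranged from -0.018 to 0.51 for Cyp7a1, from -0.51 to 0.100 for Cyp8b1 and from -0.037 to 0.14 for Slc10a1. The ATRA difference ranged from -0.12 to 0.13 for Cyp7b1, from -0.25 to 0.13 for Abcb11, from -0.21 to 0.054 for Cyp27a1 and from -0.19 to 0.065 for Slc10a1. The interaction ranged from -1.37 to 0.012 for Cyp7a1, from -0.41 to 1.34 for Cyp8b1, from -0.038 to 0.86 for Cyp7b1, from -0.39 to 0.88 for Cyp27a1, from -0.26 to 0.33 for Abcb11, from -0.11 to 0.40 for Baat and from -0.39 to 0.015 for Slc10a1. The G0s2 siRNA difference was -0.055 or 0.024 for Nr1h4, -0.010 or 0.13 for Slc10a1, -0.77 or 0.15 for Nr0b2 and -0.89 or 0.69 for Abcb11.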
